A study of Mus musculus with 6 samples.

Results

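The core circadian clock of the mouse was examined in optic nerves through 10 genes, chosen by their symbols in the deposited table: Arntl, Clock, Per1, Per2, Per3, Cry1, Cry2, Nr1d1, Nr1d2 and Dbp. All 10 were among the 25755 genes of the table. RNA came from whole optic nerves of 6 mice, 3 after sham surgery (mice 1, 2 and 3) and 3 after optic nerve crush (ON-CR; mice 4, 5 and 6), operated on at 6 weeks of age and analyzed at 12 weeks (3 months on the sample labels). Every mouse, sham mice included, was Nf1flox/flox; hGFAP-Cre, in which Cre recombinase under the human GFAP promoter removes Nf1 from neuroglial progenitors and their progeny, so no mouse here had intact Nf1 in these cells. For ON-CR the nerve was squeezed behind the eye with self-clamping forceps, and the sham operation was an incision in which the nerve was not crushed. The paper uses ON-CR for the bilateral operation, names the unilateral one separately, and reports progressive loss of retinal ganglion cells after ON-CR. Whether light input to the clock differed between the groups was not tested, and it cannot be told apart from effects within the nerve. The paper states that its mice were kept on a 12-h light/dark cycle. The time of day at which nerves were collected, and the lighting just before collection, are not given per mouse in the sources used here.

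Most cells of the body, glia included, keep a molecular clock. Arntl (also called BMAL1) and Clock encode transcription factors that pair and bind E-boxes in the DNA of the Per and Cry genes, whose proteins return to the nucleus and repress the pair. In a second loop, the REV-ERB repressors encoded by Nr1d1 and Nr1d2 and the ROR activators compete for response elements in Arntl, and Dbp, an E-box target, carries the rhythm to further genes through D-boxes. In a running clock Arntl transcripts peak at about the opposite time of day from Dbp and Nr1d1, and the suprachiasmatic nucleus, which sets the phase of the other clocks, lies directly above the optic chiasm.

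The values are gene counts that the authors divided by a single factor per library, and they are called normalized values here, listed below in the order of the mouse numbers. The libraries held 17414024 to 23620997 estimated reads on genes, and the lowest depth for any clock gene in any mouse was 54 reads, for Cry1 in ON-CR mouse 4. The oligodendrocyte marker Mbp and the astrocyte marker Gfap were abundant in every library, as the tissue label requires. Nf1 itself was at 343 to 447 in the 6 mice (log2 fold change 0.10, limma adjusted p = 0.798). Cells outside the Cre lineage keep the gene, and which cells these reads came from was not tested. Libraries differed in ways other than surgery. The X-linked transcript Xist lay between 2.14 and 30.9 for the sham mice and between 2708 and 6357 in the ON-CR mice. The Y-linked gene Ddx3y lay between 1291 and 1645 in the sham mice and was at 976, 4.19 and 0 for ON-CR mice 4 to 6. Sex and surgery therefore cannot be told apart for any gene below. ON-CR mouse 4 held both transcripts, at 2708 for Xist and 976 for Ddx3y, and the reason was not tested. For its PCR the paper pooled mice within a sample, and it does not say whether the sequenced libraries were pooled. Each library carries the label of 1 mouse and is called a mouse here. RNA of neurons was unequal as well. The summed value of 8 neuron markers was 4331 in sham mouse 1 and 9248 in ON-CR mouse 5, against 1332 to 2651 in the other 4 libraries.

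Between sham and ON-CR nerves, 0 of the 10 clock genes passed an adjusted p of 0.05 in limma, a moderated linear model fitted to all genes, where 2.1% of all genes did (540 of 25755, with 250 higher and 290 lower, or 421 higher and 195 lower after scaling to equal library totals). At an unadjusted p of 0.05, 2 of the 10 passed (Arntl, lower, and Dbp, higher), against 15.6% of all genes. The same 2 genes were those whose groups did not overlap, against 21.6% of all genes. Neither share of the clock genes was far from that of the whole table. The median log2 fold change of the 10 was 0.01 and that of all genes 0.03, with 5 clock genes above 0 and 5 below.

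**Figure D1:**
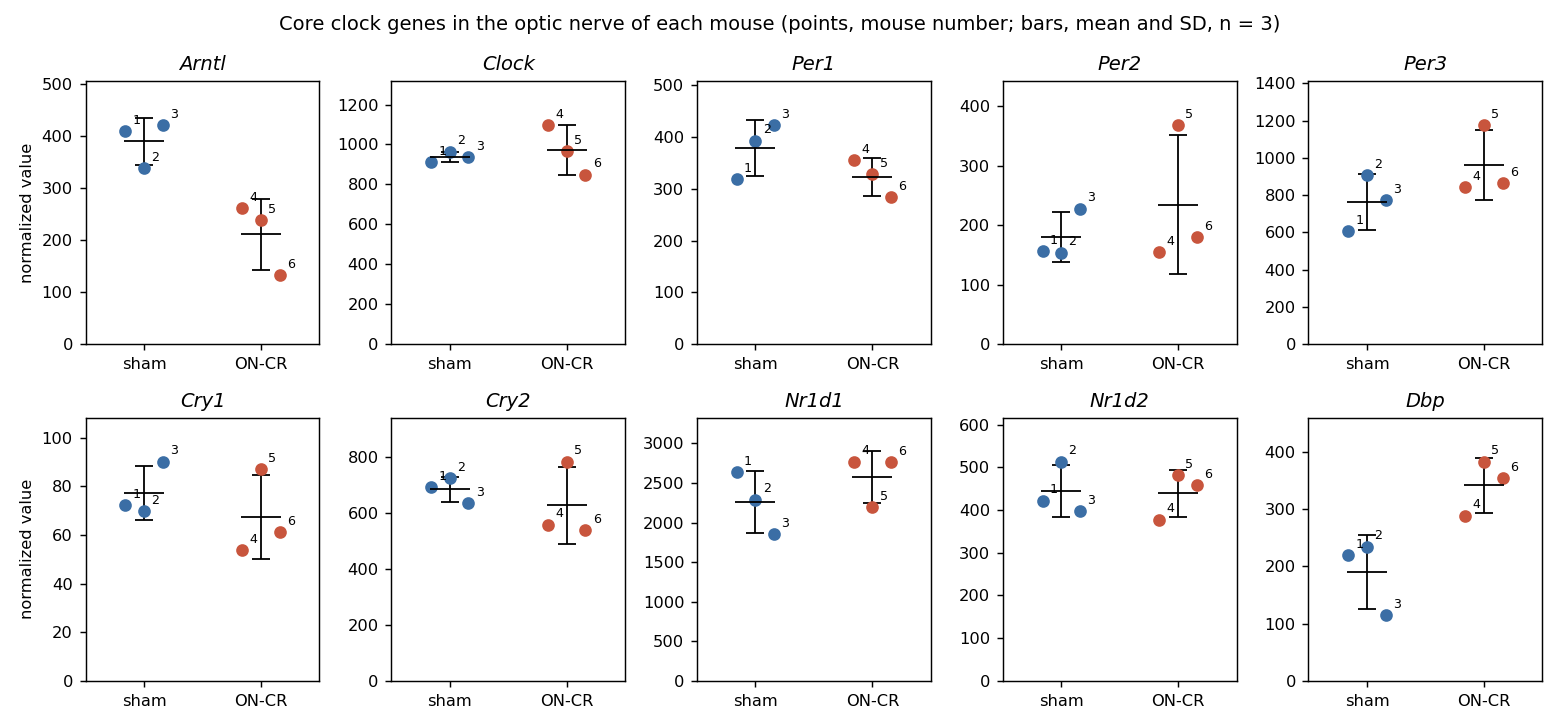
Normalized values (vertical axes, starting at 0) of the 10 core clock genes in each sham mouse (blue, mice 1 to 3) and ON-CR mouse (red, mice 4 to 6), with the mean and SD of each group (n = 3). For Arntl all ON-CR mice lie below all sham mice, for Dbp all ON-CR mice lie above them, and for the other 8 genes the groups overlap.

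Arntl encodes the partner of CLOCK and is the clock gene whose loss alone stops rhythms. Its normalized values were 409.6, 339 and 422 for sham mice 1 to 3 and 262, 238 and 133 for ON-CR mice 4 to 6. Every ON-CR mouse was below every sham mouse, and ON-CR mouse 6 was the lowest by far. The means were 390.1 ± 44.6 and 211 ± 68.7 (SD, n = 3 each). This was a log2 fold change of -0.94 (SE 0.24, 95% interval before adjustment -1.48 to -0.39), which is a level 0.523 times that of sham nerves, with a limma adjusted p of 0.087 over all genes. The two-sided exact permutation p was 0.1 (n = 3 against 3), the smallest that 3 mice against 3 allow. Omitting single mice gave log2 fold changes from -1.12 to -0.63, the latter without ON-CR mouse 6, at limma adjusted p-values from 0.0548 to 0.241.

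Dbp encodes a PAR bZIP activator and is among the clock transcripts with the widest daily swing. Its normalized values were 219, 235 and 115 for sham mice 1 to 3 and 289, 383 and 354 for ON-CR mice 4 to 6. Every ON-CR mouse was above every sham mouse, and sham mouse 3 was the lowest. The means were 189.8 ± 65.0 and 342 ± 48.2 (SD, n = 3 each). This was a log2 fold change of 0.90 (SE 0.26, 95% interval before adjustment 0.32 to 1.48), a level 1.87 times that of sham nerves, with a limma adjusted p of 0.119. Without sham mouse 3 the log2 fold change was 0.58, and omitting single mice gave 0.58 to 1.09, at limma adjusted p-values from 0.133 to 0.36. The two-sided exact permutation p was again 0.1 (n = 3 against 3). On the other strand Sphk2 shares 539 exonic bases with Dbp, 18% of the exonic length of Dbp, and the library kit does not mark strand. Sphk2 had a log2 fold change of -0.09 (limma adjusted p = 0.77). Reads in the shared bases cannot be assigned to either gene.

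Arntl lies on chromosome 7 of GRCm38 (mm10) from 113207465 to 113314126 on the plus strand, and Dbp on the same chromosome from 45705088 to 45710203, also on the plus strand. Promoter windows of RefSeq (GRCm38.p6), from 250 bases before a transcript start to 50 after it, were found for 9 of the 10 clock genes, Per2 being the gene without an entry, as 13 windows. In 11 of the 13 windows the bases after the start matched an annotated transcript of the gene in the sense direction, and in 0 the antisense direction. They were searched on both strands for the E-box CACGTG, the variant E-box CACGTT, the D-boxes TTATGTAA and TTACGTAA, the ROR and REV-ERB element TAGGTCA (which contains the half-site AGGTCA) and the CREB element TGACGTCA. The windows of Arntl, Dbp, Per3 and Ciart are shown because Arntl and Dbp carry the 2 largest differences among the 10 genes, and Per3 and Ciart hold a motif in more than 1 copy. Capitals mark an E-box, a D-box or a TAGGTCA element, and each sequence runs 5′ to 3′ on the strand of its gene, with the last 50 bases lying after the start.
Arntl, chr7:113207261-113207560, plus strand: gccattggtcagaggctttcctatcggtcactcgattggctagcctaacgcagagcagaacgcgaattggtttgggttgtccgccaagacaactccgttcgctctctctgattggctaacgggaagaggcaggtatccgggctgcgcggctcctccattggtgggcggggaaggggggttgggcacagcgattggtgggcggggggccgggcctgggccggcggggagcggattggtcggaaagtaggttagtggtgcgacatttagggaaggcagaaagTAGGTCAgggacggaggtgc
Dbp, chr7:45704997-45705296, plus strand: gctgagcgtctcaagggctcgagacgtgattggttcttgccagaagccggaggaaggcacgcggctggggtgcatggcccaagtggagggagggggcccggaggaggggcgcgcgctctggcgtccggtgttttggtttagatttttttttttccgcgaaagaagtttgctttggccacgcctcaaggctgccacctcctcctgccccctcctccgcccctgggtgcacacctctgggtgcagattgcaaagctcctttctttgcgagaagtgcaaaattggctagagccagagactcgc
Per3, chr4:151044616-151044915, minus strand: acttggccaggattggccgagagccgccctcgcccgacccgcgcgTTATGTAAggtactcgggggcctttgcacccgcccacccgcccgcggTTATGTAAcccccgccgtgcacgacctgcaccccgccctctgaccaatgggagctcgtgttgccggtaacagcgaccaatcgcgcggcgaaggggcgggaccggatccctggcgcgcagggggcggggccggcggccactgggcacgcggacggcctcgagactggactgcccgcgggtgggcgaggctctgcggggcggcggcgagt
Ciart, chr3:95882179-95882478, minus strand: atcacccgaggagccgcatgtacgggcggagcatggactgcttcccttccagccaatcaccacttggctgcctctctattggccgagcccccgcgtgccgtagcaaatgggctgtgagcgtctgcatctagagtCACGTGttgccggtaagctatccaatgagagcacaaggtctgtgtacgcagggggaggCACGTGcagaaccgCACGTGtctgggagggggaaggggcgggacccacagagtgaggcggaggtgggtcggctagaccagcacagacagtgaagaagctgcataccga

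Of the 9 clock genes with a window, Arntl alone had TAGGTCA, beginning 31 bases into its transcript, against 2.61% of all 32851 windows of the same length. The other window of Arntl, which starts further upstream and ends before that site, had no match to any of the motifs searched. Per3 alone had a D-box, 2 copies of TTATGTAA beginning 205 and 158 bases before its start, against 1.06% of all windows. An E-box CACGTG was in windows of Per1 (166 bases before the start) and Cry1 (60 bases before it), against 7.15% of all windows, and the variant CACGTT, read on either strand, was in those of Cry1, Cry2 and Nr1d1, against 4.68%. The half-site AGGTCA was in windows of 4 genes (Arntl, Clock, Per1 and Nr1d2), against 16.3%, and the CREB element was in 0 of the 9, against 1.79%. The window of Dbp held no match to any of these letters, and the rest of the gene was not searched. Among related clock genes, Ciart held 3 copies of CACGTG, beginning 116, 58 and 44 bases before its start. A gene was counted if any of its windows matched, while the percentages are of single windows, so the 2 are not directly comparable. Matches are a description of the letters and not of binding.

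Clock encodes the other subunit of the activating pair. Its normalized values were 910.5, 964 and 935 for sham mice 1 to 3 and 1098, 965.5 and 849 for ON-CR mice 4 to 6. The groups overlapped, with ON-CR mice 4 and 5 above all sham mice, mouse 5 only just, and ON-CR mouse 6 below them. The log2 fold change was 0.04 (95% interval before adjustment -0.24 to 0.33, limma adjusted p = 0.907). Thus the subunits of the pair had unlike values, with Arntl lower in 3 of 3 ON-CR mice and Clock on both sides of the sham mean; the difference between their changes was not tested. Npas2, a paralog that can stand in for CLOCK, had a log2 fold change of -0.21 (95% interval before adjustment -1.29 to 0.87, limma adjusted p = 0.881), and Arntl2, the paralog of Arntl, 0.25 (-1.08 to 1.59, adjusted p = 0.885). Both were scarce, at 13.5 to 50.9 and 9.74 to 48.2 over the 6 mice, and their intervals would hide a change as large as that of Arntl.

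The Per genes encode the PERIOD proteins, the limiting part of the repressing complex. Per1 had values of 318, 393 and 424 for sham mice 1 to 3 and 356, 329 and 284.5 for ON-CR mice 4 to 6, a log2 fold change of -0.22 (95% interval before adjustment -0.58 to 0.14, limma adjusted p = 0.562). Per2 had values of 157, 154 and 228 for the sham mice and 155.5, 369 and 179.6 for ON-CR mice 4 to 6. ON-CR mouse 5 stood apart for Per2, and without it the log2 fold change went from 0.30 (95% interval before adjustment -0.39 to 0.99, limma adjusted p = 0.699) to -0.08. Per3 had values of 607, 908 and 774 for sham mice 1 to 3 and 842.5, 1177 and 864 for ON-CR mice 4 to 6, a log2 fold change of 0.33 (95% interval before adjustment -0.07 to 0.74, limma adjusted p = 0.408). ON-CR mouse 5 was the highest for Per3 as well, and sham mouse 1 the lowest. Without these 2 mice, an alternative chosen after seeing the data, the log2 fold change of Per3 was 0.03. The 3 Per genes therefore did not move as a group: their groups overlapped in every case, and only Per1 had a negative fold change with all 6 mice.

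Cry1 and Cry2 encode the cryptochromes, the partners of PERIOD in repression. Cry1 was the scarcest clock gene, with values of 72.2, 69.9 and 90.2 for sham mice 1 to 3 and 53.8, 87.0 and 61.3 for ON-CR mice 4 to 6. Cry2 had values of 692, 726 and 637 for the sham mice and 559, 784 and 539 for ON-CR mice 4 to 6. For both genes ON-CR mice 4 and 6 were below all sham mice and ON-CR mouse 5 was the highest of its group. The log2 fold change of Cry1 was -0.22 (95% interval before adjustment -0.81 to 0.38, limma adjusted p = 0.756) and that of Cry2 -0.15 (-0.50 to 0.21, adjusted p = 0.722). Omitting single mice moved Cry1 from -0.42 (without ON-CR mouse 5) to -0.07 (without ON-CR mouse 4) and Cry2 from -0.32 (without ON-CR mouse 5) to -0.05 (without ON-CR mouse 6). D930015M05Rik shares 295 exonic bases with Cry2 on the other strand and was near 7 in both groups (7.47 and 7.29).

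Nr1d1 and Nr1d2 encode REV-ERB alpha and beta, which repress Arntl. Nr1d1 was the most abundant clock gene per length, at 735 normalized values per kilobase of exon in sham nerves and in the 95th percentile of all genes there, while Cry1, at 23.2, was the least abundant. Its values were 2639, 2290 and 1857 for sham mice 1 to 3 and 2769, 2197 and 2761 for ON-CR mice 4 to 6. The groups overlapped through ON-CR mouse 5, although ON-CR mice 4 and 6 were above every sham mouse. The log2 fold change of Nr1d1 was 0.19 (95% interval before adjustment -0.14 to 0.53, limma adjusted p = 0.588), and it went from 0.06 without sham mouse 3 to 0.31 without sham mouse 1, and to 0.42 without both sham mouse 1 and ON-CR mouse 5 (limma adjusted p = 0.211). Exons of Nr1d1 and of Thra, which encodes a thyroid hormone receptor, overlap on opposite strands over 263 bases, 8.55% of the exonic length of Nr1d1, and Thra had a log2 fold change of -0.33 (limma adjusted p = 0.368). Nr1d2 had values of 422, 513.5 and 398 for sham mice 1 to 3 and 378, 481 and 458 for ON-CR mice 4 to 6, a log2 fold change of -0.02 (95% interval before adjustment -0.36 to 0.33, limma adjusted p = 0.973). Neither REV-ERB transcript passed the adjusted threshold, and their target Arntl did not pass it either. The groups overlapped for Nr1d1 and Nr1d2, and did not for Arntl, which was lower in every ON-CR mouse. Whether REV-ERB had a part in the values of Arntl was not tested.

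**Figure D2:**
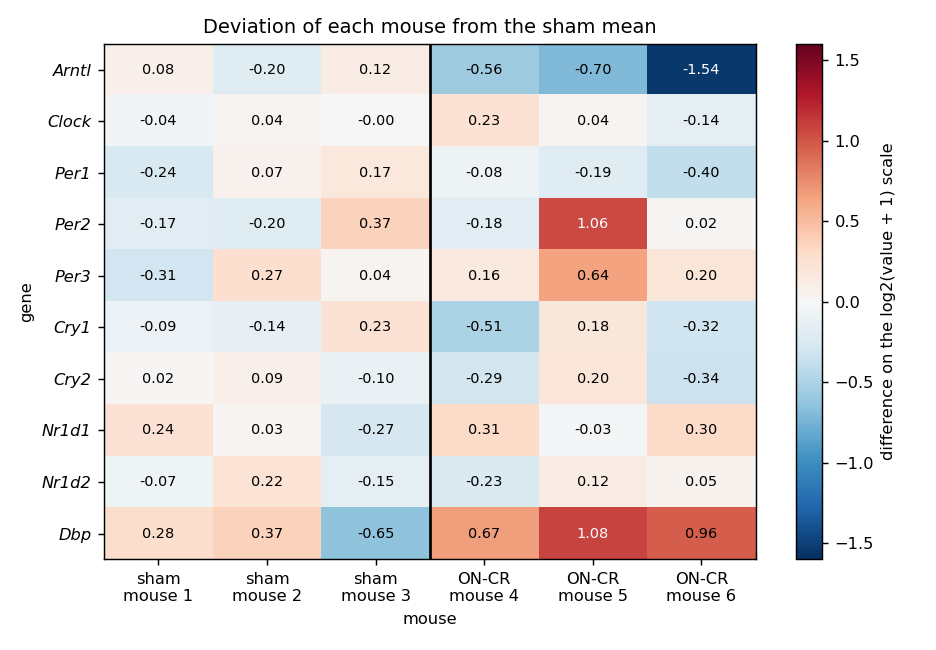
Difference of each mouse (columns) from the mean of the sham mice for each clock gene (rows), on the log2(value + 1) scale, red higher and blue lower. Arntl is negative in all 3 ON-CR mice (-0.56, -0.70 and -1.54) and Dbp positive in all 3 (0.67, 1.08 and 0.96), and the Per2 value of ON-CR mouse 5 (1.06) stands alone in its row.

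The mice of 1 group were not equal in their clock profile. Among sham mice, mouse 3 had the highest Arntl and Per2 and the lowest Dbp and Nr1d1, on the side opposite to the ON-CR mice for Arntl and Dbp. Among ON-CR mice, mouse 6 had the lowest Arntl and mouse 5 the highest Dbp, Per2 and Per3. The ratio of Dbp to Arntl, in normalized values not divided by length, was 0.536, 0.692 and 0.273 for sham mice 1 to 3 and 1.10, 1.61 and 2.66 for ON-CR mice 4 to 6. Every ON-CR nerve had a higher ratio than every sham nerve. This follows from the values of Dbp and Arntl already given, as neither gene overlapped between the groups, and it adds no further evidence. The mean log2 level of 6 E-box or D-box targets (Per1, Per2, Per3, Nr1d1, Nr1d2 and Dbp) minus that of Arntl was 0.11, 0.55 and 0.03 for the sham mice and 0.90, 1.38 and 1.96 in the ON-CR mice. The ranges did not meet, and most of the gap came from Arntl, since the mean of the targets alone was 8.79, 8.96 and 8.75 in the sham mice and 8.95, 9.28 and 9.03 for ON-CR mice 4 to 6. These are descriptions without a test, because genes were chosen with results known. Each nerve was collected once, so a shift of phase, a change of amplitude and a change of mean level cannot be told apart.

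**Figure D3:**
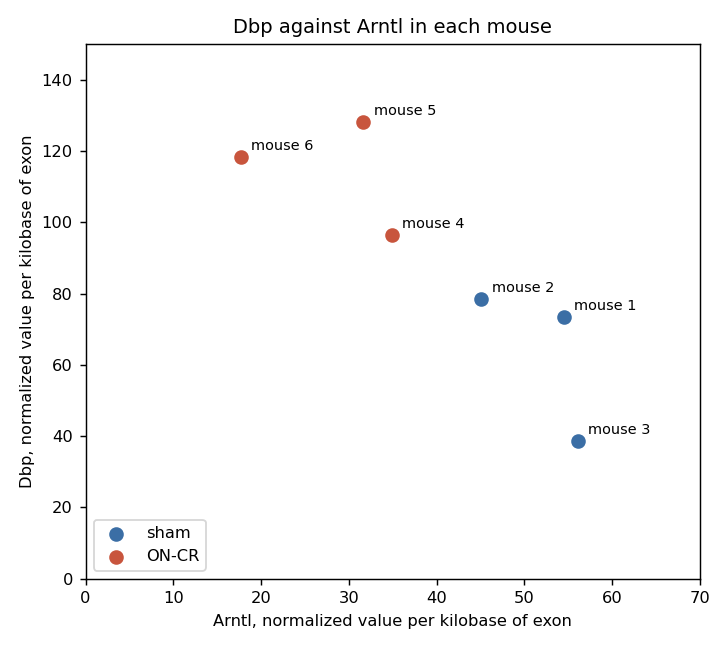
Normalized value per kilobase of exon of Dbp (vertical axis) against Arntl (horizontal axis) in each mouse, sham in blue and ON-CR in red. The 3 sham mice lie to the lower right (Arntl 45.1 to 56.05, Dbp 38.5 to 78.4) and the 3 ON-CR mice to the upper left (Arntl 17.7 to 34.9, Dbp 96.5 to 128).

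A list of 19 further clock genes held paralogs, modifiers and repressors. By limma, 0 of the 19 passed an adjusted p of 0.05 and 3 an unadjusted p of 0.05, against 15.6% of all genes. Groups without overlap were found for 4 of these 19 genes, against 21.6% of all genes, so neither count stood out from the table. There were 11 fold changes above 0 and 8 below, with a median log2 fold change of 0.05. Bhlhe40 encodes DEC1, a repressor that competes at E-boxes. It had values of 1364, 1500.0 and 1315 for sham mice 1 to 3 and 1987, 1812 and 2497 for ON-CR mice 4 to 6, with no overlap. Its log2 fold change was 0.58 (SE 0.14, limma adjusted p = 0.0633), and 5 of the other settings, among them leaving out ON-CR mouse 5 (0.026), put the adjusted p at or under 0.05, over a range of 0.0214 to 0.297. Its paralog Bhlhe41 was at 5938 to 7435 in all mice, with a log2 fold change of 0.08 (limma adjusted p = 0.786).

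Ciart (CHRONO), an E-box target that represses the activating pair, had values of 224, 234 and 205.5 for sham mice 1 to 3 and 245, 311 and 382 for ON-CR mice 4 to 6. The groups did not overlap, and ON-CR mouse 6, lowest for Arntl, was highest for Ciart. Its log2 fold change was 0.48 (limma adjusted p = 0.247). Csnk1d, which encodes a kinase that marks PERIOD for degradation, was lower without overlap, at 1250 to 1440 in the sham mice and 1024 to 1204 in the ON-CR mice (log2 fold change -0.30, limma adjusted p = 0.245). Cipc, which encodes an inhibitor of CLOCK, was also lower without overlap (log2 fold change -0.30, limma adjusted p = 0.325). For Csnk1e, a paralog of Csnk1d, the groups overlapped (log2 fold change 0.05, limma adjusted p = 0.903). Rora and Rorb, activators opposed to REV-ERB, had log2 fold changes of -0.05 and -0.24 (limma adjusted p = 0.865 and 0.61). Relatives of Dbp did not pass the test and their groups overlapped. Tef was at 0.18 and Hlf at -0.15 on the log2 scale (limma adjusted p = 0.638 and 0.602), and Nfil3, a repressor at D-boxes, was at 0.25 (adjusted p = 0.792). The Nfil3 window held TAGGTCA, as did that of Arntl, but its values did not follow those of Arntl, at 61.55, 37.2 and 96.7 for sham mice 1 to 3 and 58.8, 77.6 and 82.0 for ON-CR mice 4 to 6.

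**Figure D4:**
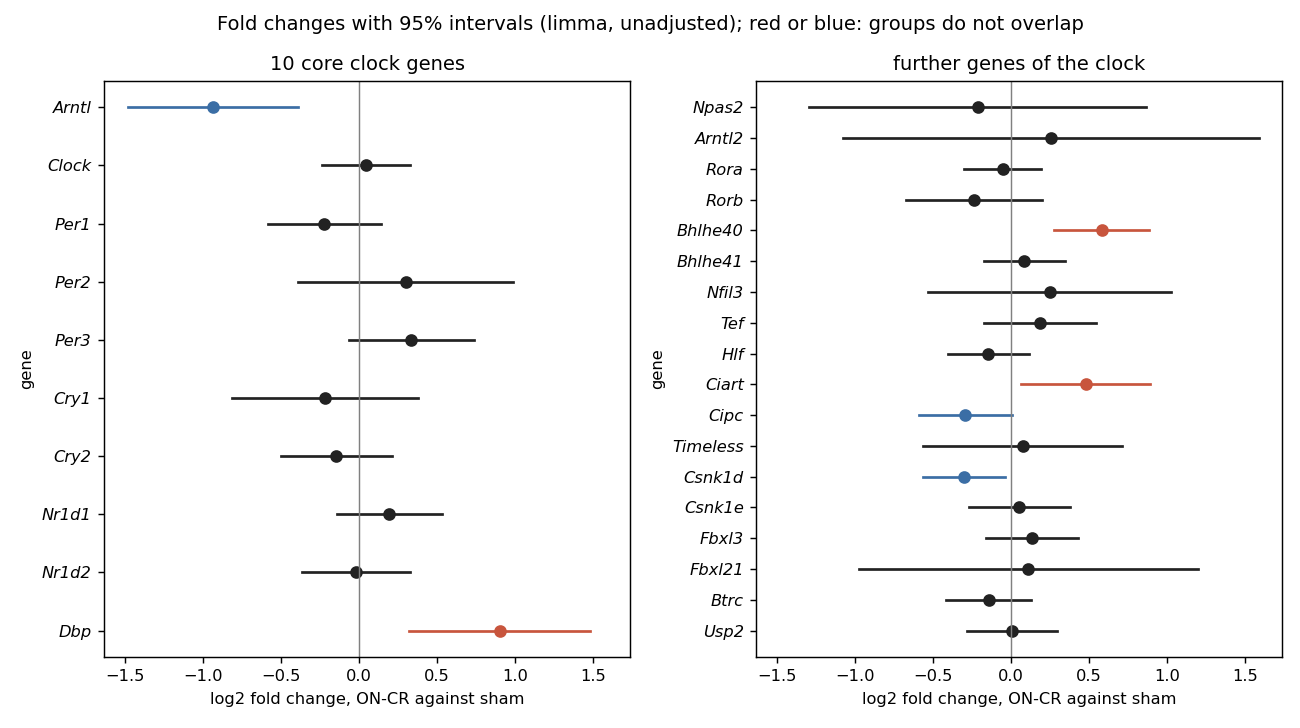
Log2 fold change, ON-CR against sham, of the 10 core clock genes (left) and of further clock genes (right), with 95% intervals by limma before adjustment for the number of genes. Colored genes have groups that do not overlap (red higher, blue lower after ON-CR): Arntl and Dbp on the left, Bhlhe40, Ciart, Cipc and Csnk1d on the right, and no gene in either panel passed an adjusted p of 0.05.

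The suprachiasmatic nucleus could enter an optic nerve sample that reaches the chiasm, so 12 of its markers were read in each library. Sham mouse 1 stood apart. Vip, a peptide of the core of the nucleus, was at 668.5 in sham mouse 1, at 6.20 and 0.939 in sham mice 2 and 3, and at 11.96, 131 and 59.2 in ON-CR mice 4, 5 and 6. Prok2, an output signal of the nucleus, was at 529.5 in sham mouse 1 and between 4.99 and 50.3 in the other 5 mice. The summed value of the 12 markers was 4260 in sham mouse 1 and 3260 in ON-CR mouse 5, against 1419 to 2261 in the other 4 libraries. By limma, 0 of the 12 passed an adjusted p of 0.05 (2.1% of all genes did). An unadjusted p of 0.05 was passed by 1 of the markers, Gpr176 (15.6% of all genes did). Avp, the most abundant of them, was at 274 to 1219, highest in ON-CR mouse 5. Without sham mouse 1 and ON-CR mouse 5, chosen after seeing the data, the log2 fold change was -1.01 for Arntl (SE 0.31, limma adjusted p = 0.171) and 0.95 for Dbp (SE 0.32, limma adjusted p = 0.212). With all 6 mice they were -0.94 and 0.90. The libraries kept were still unequal, with the highest sums of nucleus markers (2261) and of neuron markers (2651) among them in ON-CR mouse 6. The neuron markers behaved likewise, with 0 of 8 called (0 also at an unadjusted p of 0.05) and Snap25, the most abundant, between 394 and 3193. Per2 and Per3 were highest in ON-CR mouse 5, where the neuron markers were also highest. In sham mouse 1, the other library rich in them, Per3 was the lowest of all and Per2 was within the range of the other sham mice. These 2 libraries also differed in surgery and in sex-linked transcripts. The part of RNA from neurons or from the nucleus in the values of the clock genes was not tested.

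**Figure D5:**
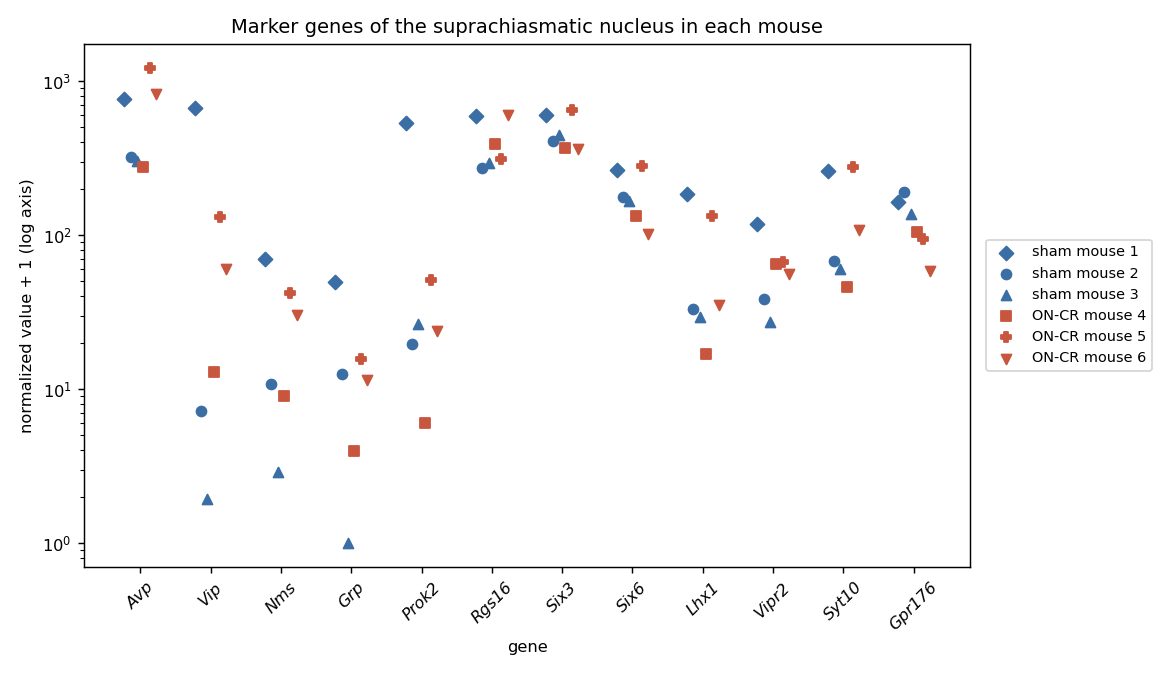
Normalized value plus 1 (log axis) of 12 marker genes of the suprachiasmatic nucleus in each mouse, sham in blue and ON-CR in red, with a symbol per mouse. Sham mouse 1 (diamonds) is the highest for Vip (668.5) and Prok2 (529.5), and sham mice 2 and 3 are at 6.20 and 0.939 for Vip.

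The make-up of the nerve differed between the groups. In bulk RNA fewer cells of a type and less RNA per cell cannot be told apart. Each marker list below is to be read beside all genes, of which 2.1% passed an adjusted p of 0.05 by limma. An unadjusted p of 0.05 was passed by 15.6%. Of 10 oligodendrocyte markers all 10 had negative fold changes and 7 passed an adjusted p of 0.05 by limma (among them Mbp, the most abundant, Mog, Mag, Cnp, Mobp and Ermn), and their summed value was 1294000 to 1849000 in the sham mice and 631400 to 748300 in the ON-CR mice. Of 8 microglia markers 2 passed and rose (Aif1 and C1qa), and 6 fold changes were above 0 and 2 below. Those below were Tmem119, lower without overlap, and P2ry12 (log2 fold changes -0.27 and -0.35, limma adjusted p = 0.351 and 0.364). The microglia sums were 15320 to 19670 in the sham mice and 19400 to 29400 in the ON-CR mice. Of 8 astrocyte markers S100b alone passed, lower after ON-CR, and Gfap was at 99190 to 123400 in the sham mice and 156500 to 203000 in the ON-CR mice (log2 fold change 0.64, limma adjusted p = 0.0859). The astrocyte sums were 220700 to 272500 and 285100 to 316400, but those of the 7 markers without Gfap were 121500 to 149900 and 113500 to 128600, and 4 of the 8 fold changes were below 0. Endothelial and mural markers, led by Rgs5, had 0 of 8 called by limma (1 at an unadjusted p of 0.05). Fibroblast markers, led by Ptgds, had 1 of 8 called (Slc47a1, lower). Retinal ganglion cell and photoreceptor markers, led by Sncg, had 0 called of the 8 found in the table (2 at an unadjusted p of 0.05). The part of these shifts in the values of Arntl and Dbp was not tested.

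Genes outside the loop that follow the clock or the same signals were read from lists. Of 15 clock-controlled outputs, 2 passed an adjusted p of 0.05 by limma, against 2.1% of all genes. Tspan4, a tetraspanin, rose from 610, 674 and 581 in sham mice 1, 2 and 3 to 1155, 1428 and 1534 in ON-CR mice 4, 5 and 6 (log2 fold change 1.13, limma adjusted p = 0.00365). Sgk1, a kinase also induced by glucocorticoids, fell from between 14680 and 15200 to between 6521 and 8840 (log2 fold change -0.92, limma adjusted p = 0.00709). Wee1, a kinase gene with E-boxes, and Nampt, the rate-limiting enzyme of NAD salvage, both read as outputs of the activating pair, had log2 fold changes of 0.62 and -0.27 (limma adjusted p = 0.405 and 0.293). Outputs therefore went in both directions, with 8 above 0 and 7 below and a median log2 fold change of 0.00.

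Per1 responds to glucocorticoids and to CREB in addition to the clock. Of 14 glucocorticoid-responsive genes, 3 passed an adjusted p of 0.05 by limma, against 2.1% of all genes. The metallothioneins Mt1 and Mt2 rose (log2 fold changes 1.06 and 1.31, limma adjusted p = 0.00604 and 0.00297) and Sgk1 fell. Fkbp5, Tsc22d3 and Zbtb16 had limma adjusted p-values of 0.814, 0.338 and 0.948. Of the 14, 6 fold changes were above 0 and 8 below, and Errfi1 was lower without overlap (log2 fold change -0.84, limma adjusted p = 0.0549). Of 12 immediate early and CREB-responsive genes, 4 passed an adjusted p of 0.05 by limma, all higher, against 2.1% of all genes. Their log2 fold changes were 2.06 (Fos), 1.69 (Junb), 1.21 (Egr1) and 2.04 (Egr2). The limma adjusted p-values were 0.00279, 0.0248, 0.0426 and 0.025 in that order. Of the 12, 6 fold changes were above 0 and 6 below, and Arc, another immediate early gene, named after its value was seen, was lower without overlap (-0.96, limma adjusted p = 0.0891). Per1, at -0.22, did not pass, and neither did Btg2, the most abundant gene of that list (0.45, limma adjusted p = 0.3). Dusp1, another gene under both signals, did not pass either (-0.37, limma adjusted p = 0.541). Whether either signal acted on Per1 in these nerves was not tested.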

How the data were processed

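Total RNA of whole optic nerves was sequenced from 6 mice, 3 sham and 3 ON-CR. The authors aligned reads with DRAGEN 3.9.3-8 and estimated counts per gene on Ensembl release 102 (mm10) in Partek Flow, where they tested with DESeq2. The deposited values are a signal, namely these counts divided by 1 factor per library (median normalization), and not raw counts. The value of 1 read was 0.885 to 1.06, and 64.3% to 66.6% of non-zero values were whole reads within 0.01, so no count test was run.

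Values were tested as log2(value + 1) by limma (version 3.58.1, R 4.3.3). The fit used a trend of variance on mean level and no filter, and p-values were adjusted by the Benjamini-Hochberg method across 25755 genes. Fold changes are on that scale, which understates low genes. Permutation tests were exact. The fit was tested on simulated data. The clock genes and all lists were chosen with earlier results of these data known. Named genes were all 10 clock genes. Of the further clock genes they were those called, the 3 with the largest fold change among the rest with a mean of at least 50, and the paralogs and relatives of the 10. Of other lists they were the genes called and the most abundant gene. The 5 genes most correlated with Arntl and with Dbp, and genes overlapping a clock gene, were also named. Cipc, Csnk1e, Wee1, Nampt, Fkbp5, Tsc22d3, Zbtb16, Dusp1, Errfi1, Tmem119, P2ry12, Vip, Prok2, Gpr176 and Arc were named after their values were seen. A few genes that this rule names are not reported here. A planned correlation of Arntl with the other clock genes is not given, since the groups did not overlap for Arntl. Gene positions are from GENCODE vM21 (GRCm38), promoters from RefSeq (GRCm38.p6).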

Additional observations from a re-analysis of the deposited data

How the results depend on the processing

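With 3 mice a group, even the differences of Arntl (-0.94, SE 0.24) and Dbp (0.90, SE 0.26), several times their standard errors, did not pass the adjusted threshold. The 10 clock genes were refitted under 17 other settings, and 0 passed an adjusted p of 0.05 by limma in any of them. Arntl stayed negative (-1.12 to -0.63) and Dbp positive (0.58 to 1.09) in all 17. Direction changed for Clock without ON-CR mouse 4 (-0.048; 0.14 at most with a mouse left out), for Per2 without ON-CR mouse 5 (-0.080; 0.54 at most), and for Nr1d2 with upper-quartile scaling (0.012), equal library totals (0.11), without sham mouse 2 (0.090) and without ON-CR mouse 4 (0.087). Without both sham mouse 1 and ON-CR mouse 5, a setting chosen after seeing the data, Per2 was at -0.16 and Nr1d2 at -0.12. Equal library totals moved the median of all genes from 0.03 to 0.15. Over all genes, 540 passed, but 7 without the mean-variance trend, 67 (without ON-CR mouse 6) to 854 (without ON-CR mouse 5) with a mouse left out, and 389 without sham mouse 1 and ON-CR mouse 5. Among the 19 further clock genes the count went from 0 to 1, Bhlhe40 in each case, with upper-quartile scaling, equal library totals, a robust fit or library quality weights, and lay between 0 and 1 with a mouse left out. The mean of the targets minus Arntl in sham mouse 3 was 0.41 when Dbp was left out of the mean. No paired analysis was possible because the mice of the 2 groups carry different numbers. The cause of these changes was not tested.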

Other observations

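The genes whose levels ran most like those of Arntl over the 6 mice, among genes with a mean value of at least 50, were Strap (Pearson r = 0.991), Fam20b (0.991), Brf1 (0.988), Gm9791 (0.987) and Dolk (0.986). Those most like Dbp were Mthfd1l (0.995), Lgalsl (0.994), Panx1 (0.992), Mt3 (0.986) and Lrtm2 (0.983). These are descriptions over 6 libraries that share the difference between the groups, and no other clock gene was among them.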
